A study of Homo sapiens with 3 samples.

Results

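This account follows 10 genes of tryptophan uptake and breakdown in interferon-treated colon cancer cells: IDO1, TDO2, KYNU, KMO, HAAO, QPRT, WARS1, SLC7A5, SLC3A2 and AHR. They were chosen by name, as every probe set that the platform annotation gives to 1 of these symbols, and 10 of 10 were measured among 11963 named genes. They were read by 16 probe sets, of which 4 belong to KYNU, 3 to KMO, 2 to WARS1 and 1 to each of the 7 others. HT-29 is an established human cell line from a colon adenocarcinoma. All 3 arrays hold RNA of HT-29 cultures given 200 U/ml of the cytokine interferon-γ (IFN-γ) for 24 h, after a first 24 h of growth from plating at 50000 cells per cm2. The series describes the cultures as biological replicates, and no untreated culture was analysed here, so every value is a level in treated cells and none is a response to IFN-γ.

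Tryptophan is an essential amino acid that is rare in most proteins, and cells import it through carriers such as the heterodimer of SLC7A5 and SLC3A2. WARS1 charges it onto its tRNA for protein synthesis. IDO1, or TDO2 in liver, opens its ring to give N-formylkynurenine, the first step of the kynurenine pathway, after which KMO, KYNU, HAAO and QPRT carry the product on towards NAD. IDO1 and WARS1 are textbook targets of IFN-γ, depletion of tryptophan by IDO1 is known to starve intracellular microbes and T cells, and kynurenine is a ligand of the transcription factor AHR.

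In the treated cells both chains of the SLC7A5 and SLC3A2 carrier, WARS1 of tRNA charging and IDO1 of ring opening were detected. The 4 member enzymes of later steps were not. Of the 10 genes, 5 were detected (WARS1, SLC7A5, SLC3A2, IDO1 and AHR), beside 39.6% of all genes tested. The 5 others, TDO2, KYNU, KMO, HAAO and QPRT, lay under the background limit on each of the 3 arrays. Detected means that the log2 signal exceeded a background limit by limma's one-sided test with a Benjamini-Hochberg adjusted p under 0.05 over 11963 genes. Each array had its own limit, set at the 95th percentile over 76 genes that are expressed in unrelated tissues. It corresponded to a signal of 249, 242 and 177 in replicates 1, 2 and 3. Of the 76 genes, 1 was itself detected, MBP, with a mean signal of 502 ± 124 (SD, n = 3). The median difference from the limit was 0.08 log2 units over the 10 genes and -0.19 over all genes. A level given as times the limit is the geometric mean, over the 3 arrays, of signal divided by that array's limit. Probe sets differ in how strongly they bind, so the level of a gene is set here against the limit and not against the level of another gene. In these bulk samples, fewer cells with a transcript and less of it per cell cannot be told apart.

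Signals are linear MAS5 intensities, and the median signal was 137, 144 and 141 in replicates 1, 2 and 3. Probe set names did not belong to the rows in which they were deposited, and the values were re-assigned to names before use. Over 4310 genes with several probe sets, signals of the first 2 by name had r = 0.19 under the deposited names and r = 0.60 after re-assignment, across genes, which are not independent replicates. A shift by 1 further row up or down returned r to 0.17. In a stretch of 750 rows on either side of each of the 16 probe sets, the correlation with distant probe sets of the same genes was highest at the order used in 16 of 16 stretches. It lay between 0.42 and 0.60 there, and at most at 0.36 for shifts of up to 3 rows. Stretches of neighbouring probe sets overlap, and those of WARS1 gave the same values, so the 16 are not separate checks. As further checks of identity, 9 of 10 epithelial markers were detected, as were 1 of 16 myeloid, 0 of 14 T and NK cell, 0 of 7 B and plasma cell, 0 of 9 endothelial, 1 of 11 fibroblast and 1 of 10 hepatocyte markers. Of the 3 lists without a detected gene, 0 markers of each passed limma's test at an unadjusted p under 0.05. The epithelial exception was CDX1, and the exceptions among other cell types were LYZ, COL1A1 and SERPINA1, all 4 picked out after their values were seen. Without replicate 1 or without replicate 2, 0 fibroblast markers were detected.

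**Figure D1:**
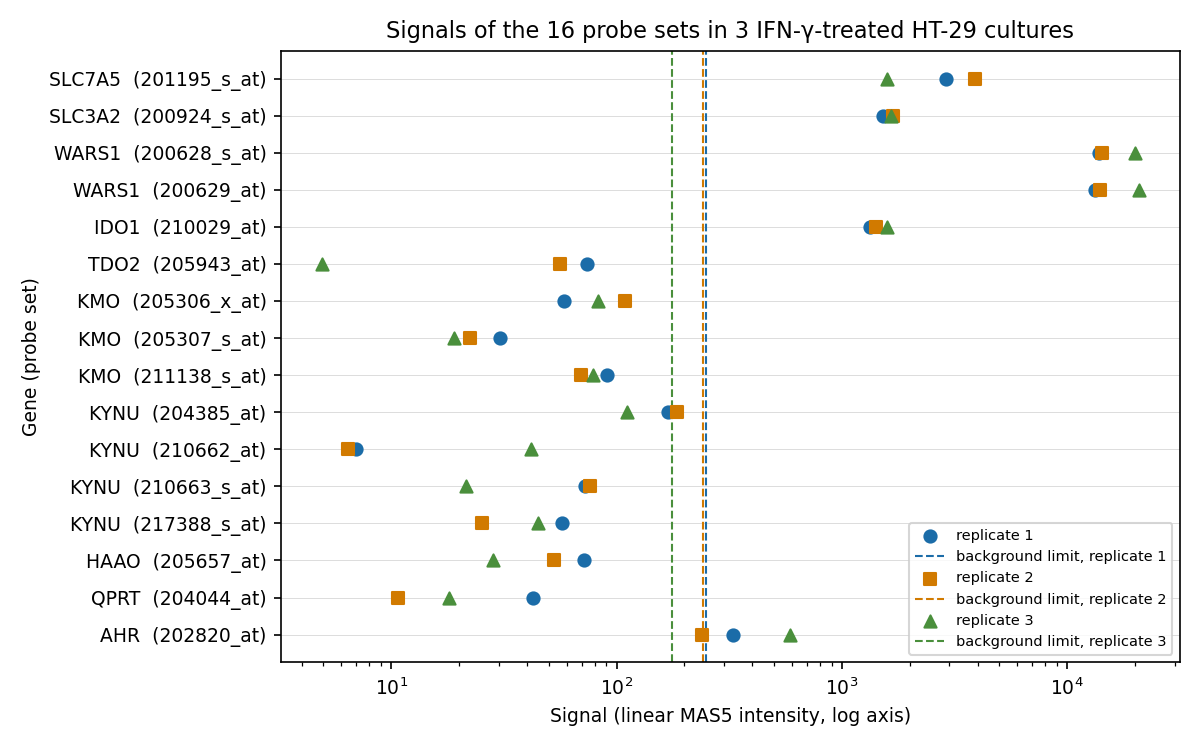
Signal of each of the 16 probe sets (rows, by gene) on a log axis of linear intensity. Symbols are the 3 replicates, and dashed lines are the background limits of the 3 arrays, at 249, 242 and 177. The probe sets of SLC7A5, SLC3A2, WARS1 and IDO1 lie to the right of all limits, and that of AHR lies near them. Those of TDO2, KMO, KYNU, HAAO and QPRT lie to the left of the limit of their own array, and replicate 2 of KYNU 204385_at, at 186, lies between the lines of replicates 3 and 2.

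Both chains of the SLC7A5 and SLC3A2 carrier were detected, and they differed in how evenly the 3 cultures expressed them. SLC7A5, the transport chain known as LAT1, had signals of 2908, 3891 and 1583 in replicates 1, 2 and 3. All of these lay above the array limits, and replicate 3 was the lowest. The mean was 2794 ± 1158 (SD, n = 3). The level was 11.9 times the limit, with a 95% interval of 8.39 to 16.8 (limma adjusted p = 6.2e-10). SLC3A2, the chain that brings the carrier to the cell surface and is also called CD98 heavy chain, had signals of 1523, 1685 and 1644. Its replicates lay within 1.11-fold of each other, whereas those of SLC7A5 spanned 2.46-fold. The mean of SLC3A2 was 1617 ± 84.1 (SD, n = 3). Its level was 7.34 times the limit with an interval of 5.35 to 10.1 (limma adjusted p = 2.5e-09). Each chain was read from a single probe set with the _s_at suffix, a design shared by several transcripts.

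Of 11 other measured amino acid carriers, 7 were detected, and the median difference from the limit was 1.57 log2 units. Detected carriers included the sodium-coupled neutral amino acid carriers SLC38A2, with a mean of 4076 ± 1276 (SD, n = 3), and SLC38A1, with 2120 ± 573 (SD, n = 3). They also included the glutamine carrier SLC1A5, with signals of 1659, 2868 and 1230, and the cystine-glutamate exchanger SLC7A11, with a mean of 800.1 ± 124 (SD, n = 3). SLC1A5 was lowest in replicate 3, like SLC7A5 and like 44.8% of all detected genes. SLC16A10, an aromatic amino acid carrier, at 38.0 ± 10.6 (SD, n = 3), and SLC6A14, a broad neutral and cationic amino acid carrier, at 44.1 ± 11.3 (SD, n = 3), were among the 4 not detected. Without the _s_at and _x_at probe sets the list held 6 genes, of which 3 were detected.

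WARS1, the cytosolic tryptophanyl-tRNA synthetase, was the only member read by several probe sets that were all detected. Probe set 200628_s_at had signals of 13806, 14278 and 20023 in replicates 1, 2 and 3, and probe set 200629_at had 13258, 14027 and 20815. They differed by -3.97%, -1.75% and 3.96% on the 3 arrays, taking the second relative to the first. Replicate 3 was the highest on both. The mean of the first was 16035 ± 3461 (SD, n = 3). Its level was 71.8 times the limit with a 95% interval of 41.0 to 126 (limma adjusted p = 3.5e-10). As deposited, the rows that carry these names read 52.5, 73.6 and 81.4 for the first and 473, 401 and 397 for the second.

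The other tRNA synthetases, which load the remaining amino acids, were detected for 16 of 16 measured genes, with a median of 3.85 log2 units over the limit. KARS1, for lysine, had signals of 12052, 10692 and 18318 and was highest in replicate 3, like WARS1. IARS1, for isoleucine, had 6111 ± 1318 (SD, n = 3), GARS1, for glycine, had 5117 ± 1298 (SD, n = 3), and NARS1, for asparagine, had 4948 ± 927 (SD, n = 3). FARSA, a subunit of the phenylalanine enzyme, had 597 ± 105 (SD, n = 3), and WARS2, the mitochondrial tryptophanyl enzyme, had 332 ± 19.0 (SD, n = 3). The difference of WARS2 from the limit was 0.59 log2 units (limma adjusted p = 0.0339).

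Promoter letters are given because WARS1 has more than 1 annotated start, and the starts differ in the letters before them. The search used the 250 bases before each start in RefSeq promoter windows of build GRCh38.p14, on both strands. The interferon-stimulated response element, which IRF family factors bind, was searched as GAAA, any 2 bases, GAAA. The gamma-activated site, a motif of interferon-γ target genes, was spelled TTCNNNGAA. The core bound by AHR and its partner was spelled GCGTG, and the amino acid response element bound by ATF4 and its partners was spelled TGATGNAA. No matches of different motifs overlapped in the windows printed here. Of 35116 windows of 27305 genes, 3.02% held the first motif, 6.57% the second, 32.2% the third and 3.14% the fourth. Windows were at hand for 9 of the 10 genes, 13 windows in all, and that of IDO1 was not analysed here. The AHR core was in 4 of the 13, 2 of SLC3A2 and 1 each of SLC7A5 and WARS1. The amino acid response element was in 0 of the 13.

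The outer WARS1 start, at chr14:100376328-100376577 on the minus strand, held neither interferon motif but did hold an AHR core on the opposite strand, 175 to 171 bases before the start and left in lower case. The inner start, at chr14:100375348-100375597 on the same strand, held both interferon motifs. They are shown because only the inner window of the 13 held the response element. Capitals mark the gamma-activated site and then the response element along the inner window, and all other bases are in lower case.
WARS1 outer start: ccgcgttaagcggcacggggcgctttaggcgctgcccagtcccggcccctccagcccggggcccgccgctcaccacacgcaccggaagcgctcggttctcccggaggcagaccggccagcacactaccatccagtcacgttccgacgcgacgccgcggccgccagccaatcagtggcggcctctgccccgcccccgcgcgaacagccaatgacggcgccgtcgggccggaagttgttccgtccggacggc
WARS1 inner start: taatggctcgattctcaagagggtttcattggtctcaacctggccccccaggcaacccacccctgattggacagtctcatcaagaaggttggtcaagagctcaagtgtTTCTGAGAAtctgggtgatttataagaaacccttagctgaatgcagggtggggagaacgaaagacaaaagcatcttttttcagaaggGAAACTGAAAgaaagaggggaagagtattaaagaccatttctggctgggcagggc
In the inner window the gamma-activated site match lay 142 to 134 bases before the start, and the response element match lay 55 to 46 bases before it. Among the windows at hand for 16 other tRNA synthetase genes, not all of them measured on the arrays, 0 of 21 held the response element and 4 held the gamma-activated site, in TARS1 and WARS2. The AHR core was in 14 of the 21, and the amino acid response element was in 3, of AARS1, GARS1 and IARS1. A match describes letters only, and the arrays do not show which start was used.

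IDO1, the ring-opening dioxygenase of non-hepatic tissue, was detected with little spread between cultures. Its single probe set, 210029_at, had signals of 1331, 1419 and 1578 in replicates 1, 2 and 3. All lay above the limits, and the highest was 1.19 times the lowest. The mean was 1443 ± 125 (SD, n = 3). The level was 6.54 times the limit, with a 95% interval of 4.73 to 9.03 (limma adjusted p = 6.4e-09). The SD of 0.12 log2 units was larger than that of 13.1% of all detected genes.

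TDO2, which opens the same ring in liver, was not detected. It had signals of 73.9, 56.4 and 4.92, all under the limits, and a mean of 45.1 ± 35.9 (SD, n = 3). The level was 0.124 times the limit with an interval of 0.0511 to 0.302. Signals this far under the limit carry no order between replicates. ALB, the main hepatocyte product, had a difference from the limit of -2.89 log2 units.

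Regulators that act upstream of IDO1 were detected for 11 of 17 measured genes, with a median of 1.61 log2 units over the limit. IRF1, an IFN-γ-induced transcription factor known to bind the IDO1 promoter, had signals of 4375, 6324 and 4557. The receptor chain IFNGR1 had a mean of 2544 ± 782 (SD, n = 3), the phosphatase PTPN11 had 2855 ± 1336 (SD, n = 3), and STAT3 had 2425 ± 648 (SD, n = 3). PTGS2, the inducible cyclooxygenase, at 80.2 ± 37.7 (SD, n = 3), and SOCS3, a feedback inhibitor that can target IDO1 for degradation, at 91.4 ± 48.4 (SD, n = 3), were not detected.

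None of the enzymes that act on kynurenine or its products among the members was detected. KYNU, the kynureninase that makes anthranilate and 3-hydroxyanthranilate, was read by 4 probe sets. Its brightest probe set, 204385_at, had signals of 168, 186 and 111, under the limit on each array. The mean was 155 ± 39.5 (SD, n = 3). The level was 0.688 times the limit, with an interval of 0.446 to 1.06 that includes the limit itself. The other probe sets of KYNU were also under the limit on every array. Probe set 210662_at had 6.99, 6.45 and 41.7, probe set 210663_s_at had 72.1, 76.5 and 21.5, and probe set 217388_s_at had 57.1, 25.3 and 45.0.

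The window before the KYNU start, at chr2:142877414-142877663 on the plus strand, held a gamma-activated site match 34 to 26 bases before the start, in capitals below. It is shown because this gene carries the motif of the inner WARS1 window without a detected signal.
KYNU start: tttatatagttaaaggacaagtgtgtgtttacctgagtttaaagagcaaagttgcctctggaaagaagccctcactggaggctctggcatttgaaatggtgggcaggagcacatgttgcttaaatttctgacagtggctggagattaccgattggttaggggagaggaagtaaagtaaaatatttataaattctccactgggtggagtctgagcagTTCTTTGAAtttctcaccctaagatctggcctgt
No response element of the spelling searched was found in these letters. SLC3A2 held the gamma-activated site in 2 of its 3 windows, and 0 windows of TDO2, KMO, HAAO, QPRT, SLC7A5 and AHR held it.

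KMO, the kynurenine hydroxylase of the mitochondrial outer membrane, was under the limit on all 3 probe sets and arrays. Probe set 205306_x_at, the brightest, had 58.5, 109 and 82.3, probe set 211138_s_at had 91.1, 69.4 and 78.6, and probe set 205307_s_at had 30.3, 22.3 and 19.0. The brightest had a mean of 83.2 ± 25.1 (SD, n = 3). Its level was 0.366 times the limit with an interval of 0.210 to 0.638. All 3 designs carry a suffix for shared or cross-hybridising sequence, so KMO had no value without them.

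HAAO, which cleaves 3-hydroxyanthranilate, had signals of 72.0, 52.6 and 28.3. QPRT, which turns the resulting quinolinate into the precursor of NAD, had 42.3, 10.7 and 18.1. Each was read by 1 probe set and lay under the limit on every array. The mean of HAAO was 51.0 ± 21.9 (SD, n = 3). Its level was 0.216 times the limit with an interval of 0.116 to 0.402. The mean of QPRT was 23.7 ± 16.6 (SD, n = 3), and its level was 0.0916 times the limit with an interval of 0.0420 to 0.200.

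These enzymes, like IDO1, are known from macrophages and dendritic cells, whose markers were therefore measured beside them. Of 16 myeloid markers only LYZ was detected, the 15 others had means under the limit, and CD14, CD163 and CSF1R had mean signals of 112, 51.1 and 78.4. The summed signal of the list was 7575, 7596 and 15386 in replicates 1, 2 and 3, of which LYZ, a lysozyme that intestinal epithelium also makes, gave 6777, 6612 and 14391. IDO1 was also highest in replicate 3, by 0.20 log2 units over the mean of replicates 1 and 2, and the part of these markers in that value was not tested.

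**Figure D2:**
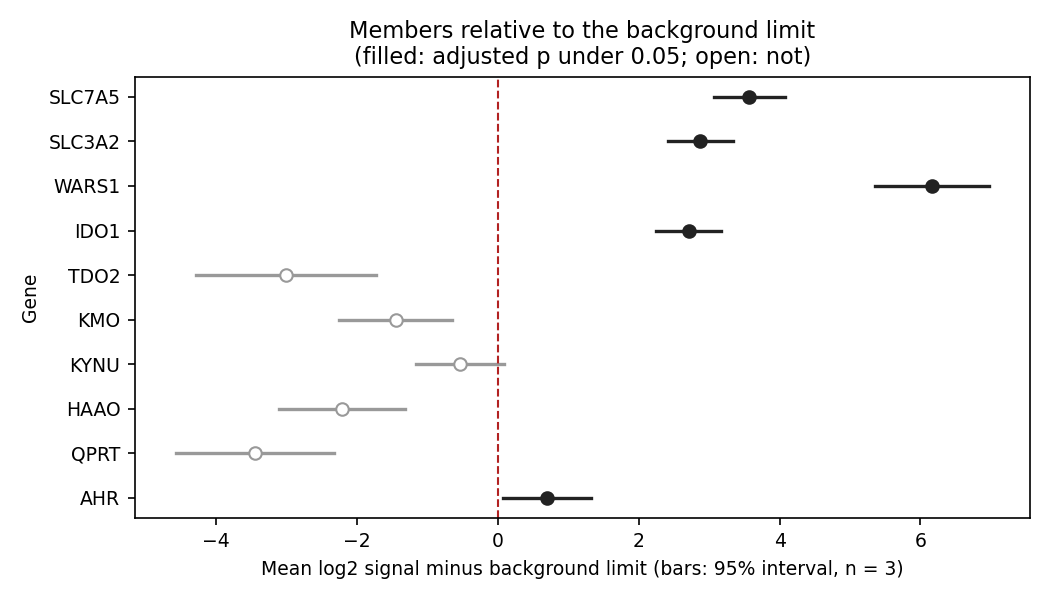
Mean log2 signal minus the background limit (x axis) for each of the 10 genes, with 95% intervals from the fit over 3 arrays. Filled points are detected genes and open points are not. WARS1 lies at 6.17 and QPRT at -3.45, and only the interval of KYNU among the open points reaches past 0.

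Other enzymes around kynurenine were detected in part. Of 4 measured genes 2 were detected, with a median of 1.27 log2 units over the limit. KYAT3, a kynurenine aminotransferase that makes kynurenic acid, had signals of 988, 856 and 1396, and GOT2, the mitochondrial aspartate aminotransferase with the same side activity, had 2676, 2331 and 1674. KYAT1 and GCDH had means of 274 ± 76.9 and 243 ± 33.1 (SD, n = 3 each) and were not detected. With the median over the probe sets of a gene, 4 of the 4 were detected. IDO2, AFMID, AADAT and ACMSD were not analysed here.

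Among other routes for tryptophan and its amine products, 2 of 6 measured genes were detected. DDC, the aromatic amino acid decarboxylase, had signals of 1288, 1045 and 1580, and MAOA, a monoamine oxidase, had 449, 381 and 334. TPH1, the rate-limiting enzyme of serotonin synthesis outside the brain, had a mean of 4.31 ± 2.03 (SD, n = 3) and was not detected. Without replicate 1 the list had 1 detected gene.

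NAD can also be made from nicotinamide, and 3 of 6 measured genes of NAD synthesis and nicotinamide use were detected. NAMPT, the rate-limiting enzyme of that salvage, had signals of 2293, 1869.5 and 3521, NADK, the NAD kinase, had 953, 963 and 916, and NNMT, which methylates nicotinamide, had 2676, 3600.3 and 2765. NADSYN1, which completes the route that QPRT feeds, had 253 ± 63.1 (SD, n = 3) and did not pass (limma adjusted p = 0.58).

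**Figure D3:**
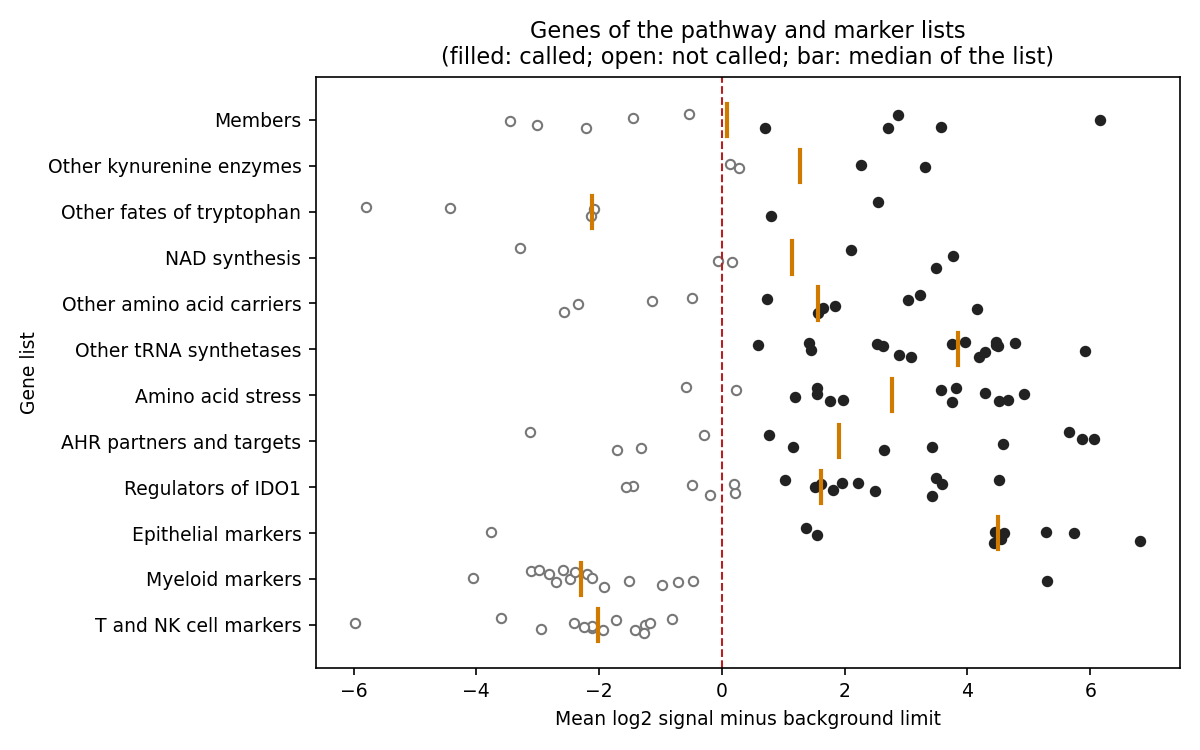
Each point is a measured gene, placed by its mean log2 signal minus the background limit over 3 arrays (x axis) in its list (rows). Filled points are detected genes, open points are not, and bars are list medians. All 16 other tRNA synthetases lie to the right of the limit, and 15 of 16 myeloid markers lie to its left.

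Of 14 measured genes listed for the response to amino acid shortage, signalling components among them, 12 were detected. Their list had a median of 2.77 log2 units over the limit. The kinase GCN2, encoded by EIF2AK4 and not analysed here, senses uncharged tRNA and raises translation of ATF4. ATF4 had signals of 4847, 4927 and 7292. Its known targets ASNS, the asparagine synthetase, and PSAT1, of serine synthesis, had means of 4321 ± 683 and 5014 ± 246 (SD, n = 3 each), and CEBPB, a partner of ATF4, had 6689 ± 771 (SD, n = 3). PPP1R15A, at 259.97 ± 46.1 (SD, n = 3), and VLDLR, at 149.97 ± 37.9 (SD, n = 3), were not detected. Levels in treated cells alone do not measure an activation of this response.

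AHR, a receptor for kynurenine, lay close to the limit and varied more between cultures than most genes. Its probe set 202820_at had signals of 328, 239.9 and 587 in replicates 1, 2 and 3. It exceeded the limit on 2 of 3 arrays, and replicate 2 fell just under its limit of 242. The mean was 385 ± 180.4 (SD, n = 3). AHR lay at 1.63 times the limit, with an interval of 1.06 to 2.51, and passed by limma's test over genes (adjusted p = 0.0373). It did not pass when every probe set was tested (adjusted p = 0.0506), nor without replicate 3 (adjusted p = 0.491, 0.19 log2 units over the limit). With the limit at the 99th percentile it lay at -0.10 log2 units.

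Of 12 measured genes listed around AHR, 8 were detected, with a median of 1.90 log2 units over the limit. The list holds partners and known targets of AHR, and also GPR35 and NFE2L2, both of them among the 8. The chaperones HSP90AB1 and HSP90AA1 and the co-chaperone PTGES3, which hold AHR in the cytosol, had means of 14802 ± 1468, 13182 ± 3763 and 11425 ± 3718 (SD, n = 3 each). NQO1, an oxidoreductase that AHR and NFE2L2 both control, had 5291 ± 394 (SD, n = 3). CYP1A1, the classical AHR target, had signals of 32.2, 56.7 and 8.71, and ALDH3A1, another target, had 35.6, 100.2 and 85.9, and neither was detected. Other known AHR targets of the list were detected, TIPARP with signals of 1549, 1077 and 1560.0 (limma adjusted p = 1.3e-08) and CYP1B1 with 306, 413 and 412 (limma adjusted p = 0.00886), while CYP1A2 had a mean of 193 ± 77.1 (SD, n = 3) and did not pass. The AHR targets thus differed in detection. ARNT, the obligate DNA-binding partner of AHR, had a mean of 91.2 ± 27.1 (SD, n = 3) and did not pass.

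Across the 3 cultures the detected members moved in different directions. Relative to the mean of replicates 1 and 2, replicate 3 differed by 1.07 log2 units for AHR, 0.51 for WARS1, 0.20 for IDO1, 0.04 for SLC3A2 and -1.09 for SLC7A5. Over all 4741 detected genes this difference had a median of -0.07, with 10th and 90th percentiles of -0.84 and 0.56. AHR lay above that 90th percentile, WARS1 exceeded 88.2% of these genes, and 4.96% lay under SLC7A5. The summed signal of the 13 measured housekeeping genes was 144813.2, 163369.5 and 211314.5 in replicates 1, 2 and 3. It was highest in replicate 3, like WARS1, although not every gene of that list was. Whether the difference of replicate 3 goes with signal level was not tested. Replicate 3 was the highest culture for 3 of the 5 detected members and for 34.3% of all detected genes. It was the lowest culture for SLC7A5 and for 44.8% of all detected genes. These are descriptions of single cultures, with no test.

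**Figure D4:**
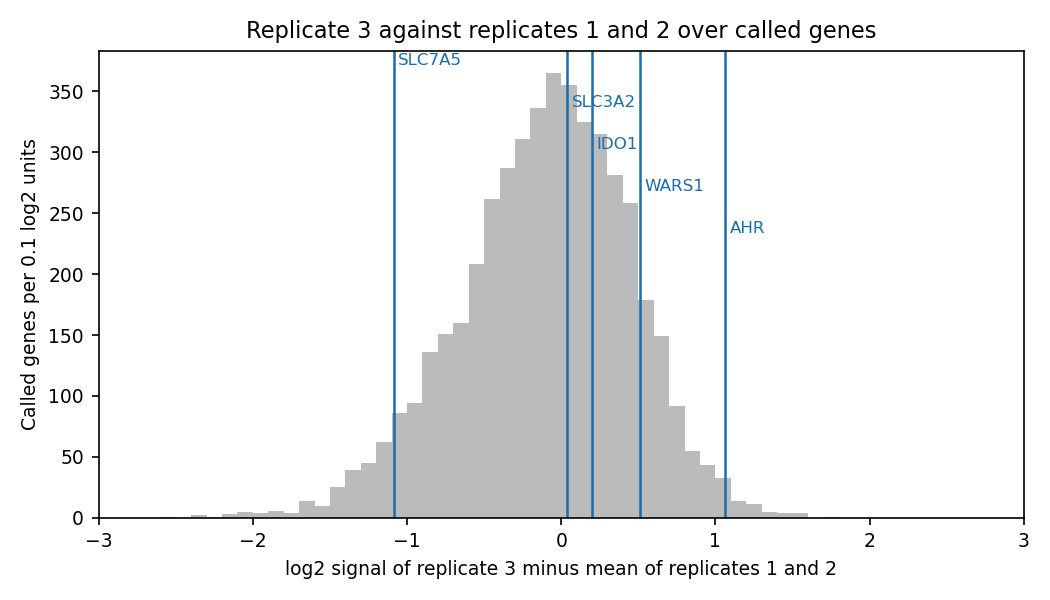
Histogram of log2 signal in replicate 3 minus the mean of replicates 1 and 2 over the 4741 detected genes (y axis, genes per bin of 0.1 log2 units). Vertical lines mark the 5 detected members, with SLC7A5 at -1.09 on the left flank, AHR at 1.07 on the right flank and SLC3A2 at 0.04 in the middle.

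The SD of log2 signal was 0.08 for SLC3A2, 0.12 for IDO1, 0.30 for WARS1, 0.66 for AHR and 0.66 for SLC7A5. The median over detected genes was 0.29, with quartiles of 0.18 and 0.43, and it was 0.19 without replicate 3. SLC7A5 and AHR exceeded 93.2% and 92.8% of detected genes in spread, and SLC3A2 exceeded 5.34%. Over probe sets, 5 of the 16 were detected (2 of WARS1 and those of SLC7A5, SLC3A2 and IDO1), beside 34.1% of 19065 probe sets tested.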

How the data were processed

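Gene expression was measured on Affymetrix arrays in 3 treated HT-29 cultures. The deposited values are linear signal intensity per probe set, which Affymetrix Expression Console 1.1 produced, with MAS5 also named, per the submitters' processing notes. The trimmed mean (2% off each end) was 500.3 on each array, so arrays had been scaled before deposit. Presence calls were not used here, and the genome build is not given in the sources used here. The number of arrays limits the precision. The p-values rest only on the spread between these samples, with the variance of each gene drawn towards a trend over all genes.

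Of 22283 probe sets, 6 were empty. Names were re-assigned to the 22277 remaining values in file order: 15 unnamed, then 100 numbered 200000 to 200099, 493 with lower numbers, 21622 others and 47 unnamed. The 68 control names were not assigned. The member probe sets moved by 487 or 488 rows, an order chosen with the data in view. Only the 19065 probe sets with 1 symbol were used, with symbols updated through RefSeq gene IDs (99.9% matched). Each gene was represented by whichever of its probe sets had the highest mean.

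Log2 signal minus each array's limit was tested in R 4.3.3 by an intercept-only limma 3.58.1 model with a trended variance prior. Tests were one-sided with Benjamini-Hochberg adjustment, and the limit was treated as known. Data were simulated for 11963 genes with noise drawn independently for each gene, so no shift was shared by the genes of an array. There, 41 of 50 genes set 1 log2 unit over the limit and 50 of 50 set 2 units over it were recovered. The 10 members and all lists were chosen with earlier results of these data known. Named genes were all members. In pathway lists with at most 10 measured genes they were the detected genes, and in larger ones the 4 highest and 2 lowest. This rule was not applied to the cell type marker and housekeeping lists. Other genes given with values were picked after their values were seen. They were MBP, CDX1, LYZ, COL1A1, SERPINA1, ALB, CD14, CD163, CSF1R, KYAT1, GCDH, TPH1, NADSYN1, TIPARP, CYP1B1, CYP1A2 and ARNT. Alternatives covered the limit, names, scaling, pseudocount, variance model, probe set choice, low signals and each replicate.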

Additional observations from a re-analysis of the deposited data

How the results depend on the processing

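Leaving the deposited names aside, WARS1, SLC7A5, SLC3A2 and IDO1 stayed detected, and TDO2, KYNU, KMO, HAAO and QPRT undetected, under every alternative run in which they were measured. IDO1 ranged from 1.91 to 3.26 log2 units over the limit, WARS1 from 5.36 to 6.71, and KYNU from -1.60 to -0.18. AHR did not pass with quantile normalization (limma adjusted p = 0.0717) or without a variance trend (adjusted p = 0.14), and its adjusted p ranged from 0.00112 to 1.0 over these alternatives. In the fit over probe sets it passed under 6 of 10. With the limit at the 99th percentile, AHR lay at -0.10 log2 units, 3014 genes and 3900.0 probe sets were detected, and 1 gene of other tryptophan routes and 0 fibroblast markers. Without _s_at and _x_at probe sets 2698 of 8369 genes were detected, 3 of 7 members, 3 other carriers, 9 of 9 tRNA synthetases, 7 regulators of IDO1, 5 epithelial, 0 myeloid, 0 fibroblast and 0 hepatocyte markers and 7 of 7 housekeeping genes. SLC7A5, SLC3A2 and KMO then had no probe set. With the median over probe sets, 4 other kynurenine enzymes, 1 gene of other tryptophan routes and 0 fibroblast markers were detected. The fit without a trend left 0 fibroblast markers.

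Under the deposited names 364 genes and 331 probe sets were detected, with 0 members by either count. There AHR lay at -4.74 log2 units, IDO1 at -4.04, SLC3A2 at -3.48, SLC7A5 at -2.68 and WARS1 at -3.21 (-5.84 on its probe set 200628_s_at). The lists then gave 0 other kynurenine enzymes, 1 gene of other tryptophan routes, 0 of NAD synthesis, 0 carriers and 3 tRNA synthetases. They also gave 2 stress genes, 1 gene of the AHR list, 2 regulators of IDO1 and 2 epithelial markers. Myeloid and fibroblast markers gave 0 each, and housekeeping genes gave 1.

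Leaving out each replicate in turn gave 4463 to 4687 detected genes, 4 to 5 members (4 without replicate 3), 1 to 2 genes of other tryptophan routes, 0 to 1 fibroblast markers and a median SD of 0.19 to 0.31. Of all other recomputed counts and values, 204 counts kept within 1.5 times the main one and 258 values kept their direction and side of the threshold. The cause of these differences was not tested. No paired analysis was possible because the series has a single group.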
